A study of Danio rerio with 56 samples.

Results

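The cytosolic ribosome, which makes most proteins of a cell, is built from ribosomal RNA and a set of conserved ribosomal proteins. The rpl genes, with rplp0, rplp1 and rplp2, encode the proteins of the large subunit, and the rps genes those of the small subunit. Members were all genes of the count table whose symbol starts with rpl or rps and a number, or is rplp0, rplp1, rplp2 or rpsa, without the kinases of rps6, names ending in like, and rps19bp1. This gave 82 of 32520 genes, 46 of the large and 36 of the small subunit, under 78 distinct symbols. No gene carried the symbol rpsa. The symbols rpl5 and rps26 were among those that belonged to 2 genes.

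Ribosomal proteins are needed in near-equal numbers, and in vertebrates their mRNAs share a start of pyrimidines through which growth signals govern their translation together. Ribosome assembly takes place in the nucleolus with a separate set of factors, and mitochondria carry ribosomes of their own whose proteins also come from nuclear genes. Growing oocytes stock ribosomes and the RNA that builds them for use by the embryo.

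Whole zebrafish of the AB strain were sampled at 2, 8, 16, 32 and 64 d, and each library was made from polyadenylated RNA of a pool of 25 fish. EM fish were kept in exemestane at 10 µg/L, a steroidal inhibitor of the aromatase that makes oestrogens. E2 fish were kept in 17β-estradiol at 100 ng/L, EM+E2 fish in both, and DMSO fish in the solvent alone, which all groups received. The labels give a solvent level of 100 in different units in different fields, and do not give the sex of the fish. Of 56 libraries in 20 groups 55 were used, 3 a group except that EM+E2 and DMSO had 2 at 2 d, and each exposed group had 2 at 64 d. Since no label states that the pools of a group had separate tanks, p-values measure the spread between libraries only. Replicate numbers are those of the count columns. The titles of the EM+E2 libraries of 64 d give them in the other order, and those of EM at 8 and 16 d repeat a number. Library totals were 4039030 to 10144213 counted reads. In whole-body pools fewer cells of a type and less RNA per cell cannot be told apart.

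Some libraries stood apart from others of their group. The raw counts of EM+E2 2 d replicate 2 equalled those of EM+E2 16 d replicate 3 in every gene, and the 2 d column was left out. E2 2 d replicate 1 was closest in counts to E2 16 d replicate 1, with a mean chi-square of 3.65 per gene, and its mki67, a gene of dividing cells, was at 141 CPM (counts scaled to an equal total per library), against 626 to 1114 CPM in the other 2 d libraries, which goes against its label. DMSO 32 d replicate 2 had 20.4% of its reads in mitochondrially encoded genes, the highest of all libraries. At 2 d the libraries fell into those with 48.3 to 134 CPM of the apolipoprotein gene apobb.1 (EM 1 and 2, E2 1 and 2, DMSO 1) and those with 5822 to 7436 CPM.

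Members differed widely in their level in the raw counts, given as CPM, which is not per length and so does not rank proteins by their mRNA number. The highest means over all libraries were 2862 CPM for rps2, a protein of the small subunit near its mRNA entry, 2658 CPM for rpl7a and 2615 CPM for rplp0, the base of the stalk that recruits elongation factors. Among the lowest were 0.0252 CPM for rpl26, 0.675 CPM for rpl9 and 0.799 CPM for rpl32. A mean under 10 reads was found for 4 members, these among them, and the other 78 are used where levels are compared across libraries.

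Several members were low in the raw count table and not in the other deposited table. The authors' normalized table, turned back into whole reads, placed rpl26 at 717 CPM, against at most 2 reads in any library of the raw counts. In the same table rpl9 was at 871 CPM, rpl32 at 536 CPM, rps3a at 1057 CPM against 27.6 CPM in the raw counts, and rpl10 at 584 CPM against 29.1 CPM. In all, 12 members were more than 2 times higher in the recovered reads, and of 12 members under 50 CPM in the raw counts 8 lay above it there. The median member, in contrast, had 0.681 times its raw level in the recovered reads. What makes the tables differ was not tested, and no fold is given for members with a mean under 10 reads.

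The members together took 3.11% to 12.0% of the reads of a library, a 3.85-fold range with a median of 5.24%. The lowest, median and highest share were 3.27%, 6.34% and 10.4% at 2 d (10 libraries), and 6.20%, 6.97% and 12.0% at 8 d (12 libraries). They were 4.21%, 5.49% and 10.7% at 16 d and 3.71%, 4.29% and 7.00% at 32 d (12 libraries each), and 3.11%, 3.69% and 5.24% at 64 d (9 libraries). The median share over all treatments was thus highest at 8 d and lowest at 64 d, and the ranges of neighbouring ages overlapped throughout. In DMSO fish alone the mean share was highest at 16 d, at 6.86 ± 1.43%, against 6.58 ± 0.44% at 8 d (SD, n = 3 each). It was lowest at 64 d, at 3.87 ± 1.19% (n = 3). Shares in the recovered reads ran lower, between 2.53% and 7.91%.

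**Figure D1:**
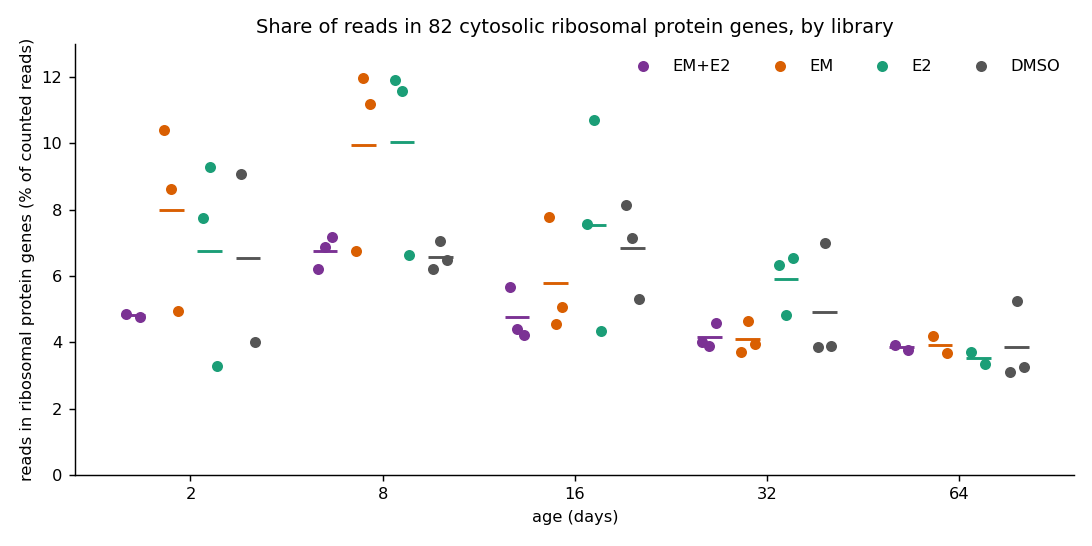
Share of counted reads in the 82 ribosomal protein genes (percent, vertical axis) in each of 55 libraries by age in days. Points are libraries and lines are group means, with EM+E2, EM, E2 and DMSO from left to right within an age. The 2 d libraries spread from 3.27% to 10.4%, and 4 EM and E2 libraries at 8 d lie between 11.2% and 12.0%.

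Libraries of 1 group could differ as much as ages did. At 2 d the shares were 10.4%, 8.62% and 4.93% in EM, 7.74%, 9.28% and 3.27% in E2, 4.86% and 4.75% in EM+E2, and 9.08% and 3.99% in DMSO. The 5 libraries at 7.74% or more were those with low apobb.1, and the 5 at 4.93% or less those with high apobb.1, whatever the treatment. Among the former is E2 2 d replicate 1, at 7.74%, whose mki67 level goes against its label. The part of this split in the results at 2 d was not tested. At 8 d the shares were 6.74%, 12.0% and 11.2% in EM, 11.9%, 11.6% and 6.64% in E2, 6.20%, 6.87% and 7.17% in EM+E2, and 6.21%, 7.06% and 6.48% in DMSO. EM replicate 1 and E2 replicate 3 thus lay near the DMSO shares and the other EM and E2 libraries well above them. The 4 high ones also had 1.64 to 2.38 raw reads per recovered read, against 1.18 to 1.57 in the other 8 d libraries. In the recovered reads they held 6.60% to 7.49%, against 4.21% to 5.45% in the others.

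From 16 d on every exposed group overlapped with the DMSO group of its age. At 16 d the shares were 7.77%, 4.54% and 5.07% in EM, 7.58%, 10.7% and 4.33% in E2, 5.67%, 4.41% and 4.21% in EM+E2, and 8.13%, 7.14% and 5.30% in DMSO. At 32 d they were 3.71%, 4.64% and 3.95% in EM, 6.34%, 4.81% and 6.55% in E2, 4.00%, 3.89% and 4.58% in EM+E2, and 3.86%, 7.00% and 3.88% in DMSO. The 7.00% belonged to DMSO 32 d replicate 2, whose high mitochondrial share is given above. All E2 libraries of 32 d, at 4.81% or more, and by little all EM+E2 libraries lay above the other DMSO libraries. These groups thus overlapped with DMSO only through replicate 2. At 64 d the shares were 4.18% and 3.66% in EM, 3.69% and 3.35% in E2, 3.91% and 3.78% in EM+E2, and 3.11%, 5.24% and 3.25% in DMSO. The exposed libraries of 64 d all lay within the DMSO range, but only through DMSO replicate 2 at 5.24%. All of them lay above the other DMSO libraries, at 3.11% and 3.25%.

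The members moved together across libraries. Over the 78 members, the first principal component of log2(CPM + 1) held 70.7% of the variance and the second 7.79%. The median member correlated with the median of the others at a Pearson r of 0.905 over 55 libraries, which share depth and composition. Among the lowest were 0.140 for rpl7l1, 0.144 for rps27l and 0.172 for rpl10. Of these rpl7l1 is a relative of rpl7 that in mammals is found in the nucleolus on large subunits under assembly, and rps27l is a relative of rps27 that p53 induces in human cells.

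**Figure D2:**
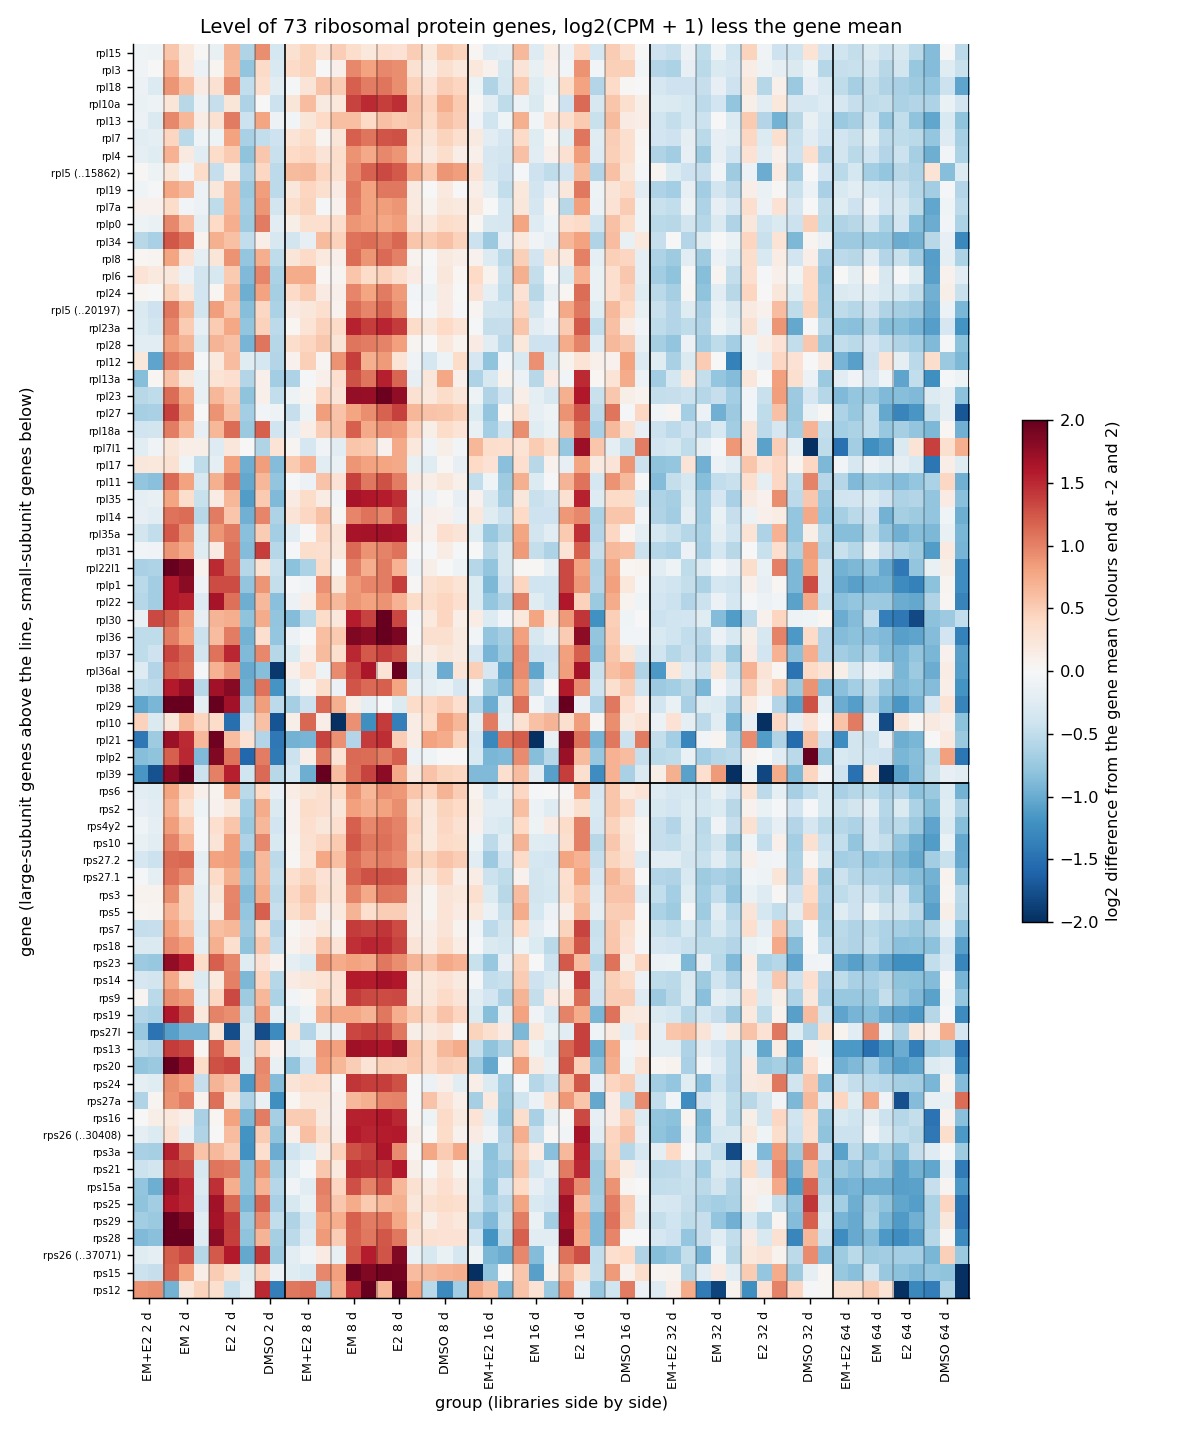
Level of 73 ribosomal protein genes (rows, large subunit above the line) in 55 libraries (columns, grouped by age and treatment), as log2(CPM + 1) less the mean of the gene. Most rows change colour together, and rpl7l1 and rps27l do not follow them.

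Members encoding small proteins varied more between libraries of a group than those encoding large ones. The within-group SD of log2(CPM + 1) had a median of 0.658 over 19 members of small proteins, such as rps29, rpl38 and rplp2, and of 0.385 over 20 members of large proteins, such as rpl3, rpl4 and rps2. The highest over the lowest level had a median of 8.88-fold for small and 4.21-fold for large proteins. These size classes were drawn from textbook knowledge after the values were seen, and give a description only. For example, rps29 ran from 142 to 1015 CPM at 2 d, whereas rpl3, a large protein at the peptidyl transferase centre, ran from 1305 to 3648 CPM. The classes also differed in level. Means over all libraries were 2374, 2123 and 2862 CPM for rpl3, rpl4 and rps2, and 292, 134 and 473 CPM for rps29, rpl38 and rplp2. The large protein rps3a, with a mean of 27.6 CPM, had a within-group SD of 0.646. The part of level in the spread was not tested.

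The widest ranges owed much to 1 library. Over all libraries rps12 spanned 103-fold and rps15 91.1-fold in the raw counts, with the lowest values, 7.03 and 7.48 CPM, both in DMSO 64 d replicate 3. The next lowest were 23.6 CPM for rps12, in E2 64 d replicate 1, and 20.7 CPM for rps15, in EM+E2 16 d replicate 1. In the recovered reads rps12 ran from 134 to 704 CPM and rps15 from 120 to 659 CPM over all libraries, so neither gene came near those low values there.

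Some genes outside the rule followed the members closely over the 55 libraries. Of the cytosolic ribosomal proteins with other names, fau, which encodes a small-subunit protein fused to a ubiquitin-like one, had a Pearson r of 0.987 with the member median, and rack1 of 0.789. Among 20 elongation and termination factors the median r was 0.353, with naca, a subunit of the complex that binds nascent chains, at 0.908. Among 39 initiation factors it was 0.294, with eif3f at 0.895. It was 0.181 over 73 mitochondrial ribosomal proteins, 0.114 over 55 nucleolar assembly factors and -0.085 over 19 genes of nutrient and p53 signalling. These libraries share ages and depths, and the r values are a description.

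Between successive ages, exposed fish were tested apart from DMSO fish, in libraries of their own. In exposed fish 20 of 81 members tested (24.7%) rose at 8 d against 2 d and none fell, when 26.3% of all genes rose and 19.1% fell. Members thus rose no more often than all genes. An unadjusted p under 0.05 was found for 38.3% of members and 51.7% of all genes. At 16 d against 8 d 29 of 81 fell and none rose, when 9.91% of all genes fell. Both steps share the 8 d libraries, so a rise and a later fall are not independent. Among these are the EM and E2 libraries with high shares described above. No run left out all of those, and their part in the steps was not tested. The median member changed by 0.47 at the first of these steps (all genes 0.16) and by -0.65 at the second (all genes 0.00), on the log2 scale. In DMSO fish the median member changed by -0.21 and 0.25 at the same steps, with the limits given below.

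The number of calls depended on the libraries entered. Without replicate 1, 2 or 3 of the exposed groups the calls at 8 d against 2 d were 7, 4 and 9, of which in the last case 6 were higher and 3 lower, and at 16 d against 8 d they were 8, 2 and 9. The median member then changed by 0.63, 0.50 and 0.24 at the first step, where without replicate 3 all genes had 0.29, and by -0.86, -0.59 and -0.49 at the second. In the recovered reads 3 members passed at each step, and the medians were 0.13 (all genes 0.09) and -0.43 (all genes 0.04). DESeq2 called 19 and 27. Shares of all genes called in these runs are not given here, so the counts cannot be set against them.

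Among the members with the smallest adjusted p at 8 d against 2 d was a less abundant relative of another gene. rps27l averaged 48.9 ± 25.2 CPM at 8 d and 17.5 ± 8.81 CPM at 2 d (SD, n = 9 and 8), a log2 fold change of 1.55 ± 0.30 (adjusted p = 0.000114), and the call held in each alternative run.

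Core members were among those that rose at that step, where members rose no more often than all genes. rpl10a, a protein of the large subunit's L1 stalk, averaged 1689 ± 659 CPM at 8 d and 791 ± 182 CPM at 2 d, with a log2 fold change of 1.11 (adjusted p = 0.000308) that was 0.41 and not called in the recovered reads. rpl5 (ENSDARG00000015862), which carries a small ribosomal RNA into the large subunit together with rpl11, averaged 1428 ± 356 CPM at 8 d and 767 ± 169 CPM at 2 d (log2 fold change 0.95, adjusted p = 0.000405). It kept its call in every alternative. The gene rps26 (ENSDARG00000030408) had a log2 fold change of 1.096 (adjusted p = 0.00511), and 0.39 without a call in the recovered reads. Its call was kept in 9 of 11 alternatives. The other gene of each symbol had wide ranges in exposed fish. rps26 (ENSDARG00000037071) ran from 78.3 to 481 CPM at 2 d and from 138 to 581 CPM at 8 d. rpl5 (ENSDARG00000020197) ran from 625 to 2347 CPM at 2 d and from 1115 to 2526 CPM at 8 d. In all groups named here the libraries of the ages overlapped.

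At 16 d against 8 d the same rpl5 gene led, at 709 ± 231 CPM and 1428 ± 356 CPM (SD, n = 9 each), a log2 fold change of -1.10 (adjusted p = 0.000161) called in every alternative. rpl10a followed with -1.003 (adjusted p = 0.00158), also called throughout. rps15 fell to 149 ± 78.5 CPM at 16 d, against 404 ± 222 CPM at 8 d (log2 fold change -1.48, adjusted p = 0.00108). rps27.1 had -0.91 (adjusted p = 0.0055) and rps13 -1.04 (adjusted p = 0.00848). Calls of rps15, rps27.1 and rps13 were lost in the recovered reads, where their log2 fold changes were -0.51, -0.51 and -0.46, and without replicate 2 of the exposed groups.

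Members fixed as a panel for their roles were mostly not called at these steps. The members above were named for their small adjusted p, so their changes are not set against those of the panel. Of the panel, the rpl5 gene ENSDARG00000015862 was called at both steps, as given above, and rps6 at 16 d against 8 d. Of that panel rps6, whose phosphorylation follows growth signals, had 1511 ± 311 CPM at 8 d and 1177 ± 407 CPM at 2 d (adjusted p = 0.0731), and fell to 1072 ± 289 CPM at 16 d (log2 fold change -0.58, adjusted p = 0.0313). rps19, mutated in a human anaemia of ribosome loss, had log2 fold changes of 0.21 and -0.56 at the 2 steps (adjusted p = 0.544 and 0.11). rpl11, which binds the p53 inhibitor Mdm2 in mammals when assembly stalls, had 0.60 and -0.65 (adjusted p = 0.0886 and 0.0842). The panel genes rplp0, rpl3, rps27a, rps29, rpl22, rpl22l1 and rpl38 had adjusted p-values of 0.0618 or more at both steps.

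**Figure D3:**
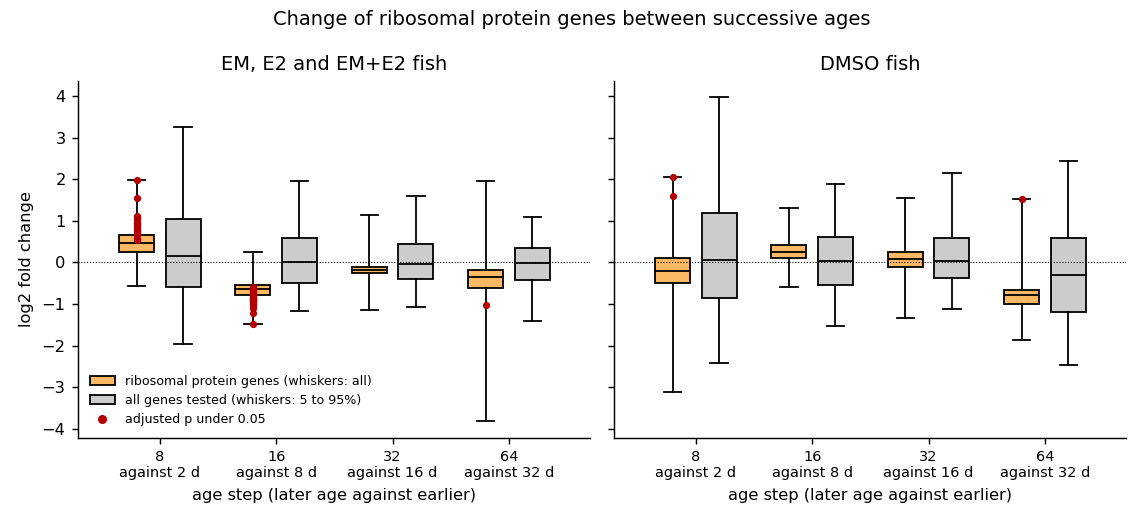
Log2 fold change between successive ages, later over earlier, of the ribosomal protein genes (orange boxes, whiskers over all members tested) and of all genes tested (grey boxes, whiskers from 5 to 95%), in exposed fish (left) and DMSO fish (right). Red points are members with an adjusted p under 0.05: 20, 29, 0 and 1 in exposed fish, and 2, 0, 0 and 1 in DMSO fish.

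Later steps in exposed fish held few calls. At 32 d against 16 d edgeR called 0 of 81 members in either direction and DESeq2 0, when 9.26% of all genes were called. An unadjusted p under 0.05 was found for 0 members, against 25.4% of all genes. The median member changed by -0.18 (all genes -0.02), and by -0.37 to -0.02 over the alternative runs. At 64 d against 32 d 1 member fell, when 2.73% of all genes did. The unadjusted p was under 0.05 for 19.8% of members and 17.8% of all genes. At this step the median member changed by -0.35 (all genes -0.02), and by -0.52 to -0.23 over the alternative runs. Without replicate 3 of the exposed groups 8 members were called at that step, in a run whose share of all genes called is not given here.

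In DMSO fish, with 2 or 3 libraries an age, 2 of 80 members rose at 8 d against 2 d and none fell, when 10.4% of all genes rose. Of these rps27l had 34.3, 36.2 and 30.6 CPM at 8 d, against 8.13 and 12.0 CPM at 2 d, a log2 fold change of 1.59 ± 0.42 (adjusted p = 0.0163). Its groups did not overlap. With either DMSO library of 2 d left out, rps27l was not called (1.53 without replicate 1 and 1.67 without replicate 2). The median member changed by -0.21, by -0.77 without DMSO 2 d replicate 2 and by 0.79 without DMSO 2 d replicate 1, so its direction rested on those libraries.

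At the next steps of DMSO fish edgeR called 0 of 80 members, at 16 d against 8 d (4.62% of all genes called in either direction) and at 32 d against 16 d (2% of all genes). Neither step had a member with an unadjusted p under 0.05, when 16.9% and 11.7% of all genes had such a p, and DESeq2 called none. The median member changed by 0.25 and 0.08. The value of 0.08 became -0.87 without DMSO 32 d replicate 2 and 0.39 without replicate 3, so its direction rested on those libraries. At 32 d against 16 d the members farthest from the median of 0.08 with reads enough to compare were rplp2, a stalk protein, at 1.54, and rpl7l1, at -0.85. The first of these rested on DMSO 32 d replicate 2, where rplp2 was at 1956 CPM, against 264 and 225 CPM in the other libraries of that group.

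At 64 d against 32 d in DMSO fish 1 of 80 members rose and none fell, when 10.4% of all genes rose. This was rpl7l1, with 108, 51.3 and 68.6 CPM at 64 d, against 36.0, 8.06 and 28.4 CPM at 32 d. Its groups did not overlap, its log2 fold change was 1.53 ± 0.40 (adjusted p = 0.0172), and the call was lost without DMSO 64 d replicate 1 (1.22). The median member went the other way, by -0.79 (all genes -0.31), and by 0.38 without DMSO 32 d replicate 2. rps12, at 41.3 ± 33.5 CPM at 64 d and 126 ± 22.0 CPM at 32 d (SD, n = 3 each), and rplp2 were farthest below it, with log2 fold changes of -1.81 (adjusted p = 0.14) and -1.87 (adjusted p = 0.219). Without DMSO 32 d replicate 2 the value of rplp2 was 0.91, the opposite sign.

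Other genes of ribosomes and translation were tested in the same fits. Of the nucleolar assembly factors in exposed fish, 38 of 56 rose and 1 fell at 8 d against 2 d, with rrp12 at a log2 fold change of 2.45 and sdad1 at 2.52, when 26.3% of all genes rose and 19.1% fell. At 16 d against 8 d 4 rose and 17 fell, when 12.7% of all genes rose and 9.91% fell. In DMSO fish 13 rose and 2 fell at 8 d against 2 d, with ddx21, an RNA helicase, at 3.10 and sdad1 at 2.73, when 10.4% of all genes rose and 11% fell. At 64 d against 32 d 27 rose and none fell, when 10.4% of all genes rose and 10.8% fell. Mitochondrial ribosomal proteins had 11 of 74 higher and 8 lower at the first exposed step, both shares below those of all genes, and 12 higher and 3 lower at the second, a share near that of all genes for the higher ones and below it for the lower. In DMSO fish 5 were lower and none higher at 8 d, and 10 were higher and none lower at 64 d. Factors of elongation and termination had 7 of 20 higher and 1 lower at the first exposed step, led by eef1da at 2.34 and eif5a2 at -1.22, and 1 higher and 7 lower at the second. Factors of initiation had 15 of 39 higher and 6 lower, led by eif4g2 at -2.45 and eif6, a factor that keeps free large subunits apart, at 2.12, and then 5 higher and 10 lower. Of 19 genes of nutrient and p53 signalling 4 rose and 4 fell at the first exposed step, and 2 rose and 1 fell at the second. fau fell at the second exposed step by 0.78 on the log2 scale (adjusted p = 0.0347).

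The effect of EM and E2 on the members was tested at each age, as EM, E2 and EM+E2 against the DMSO libraries they share, as main effects of EM and of E2, and as their interaction. From 2 to 32 d edgeR called no member in any of these 24 comparisons. At 2 d, where 79 members were tested, 0% of all genes were called for EM and for E2, 0.0152% for EM+E2 and for the interaction, and 0.0101% for either main effect. Members with an unadjusted p under 0.05 numbered 2 for EM (0.821% of all genes), 1 for E2 (2.08%) and 15 for the interaction (4.83%). They numbered 0 for EM+E2 and for both main effects. DESeq2 called 1 for the interaction and 0 for the rest, with its shares of all genes called not given here. For EM the median member changed by 0.49, and by -0.06 without DMSO 2 d replicate 2 and 1.44 without replicate 1. The medians of E2, EM+E2 and both main effects also turned sign with 1 of these libraries left out. That of the interaction was -1.43, and -2.26 without replicate 1 and -0.86 without replicate 2.

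At 8 d 78 members were tested, and 0.00493% of all genes were called for EM+E2 and 0% in each of the other 5 comparisons. Many members nevertheless had a low unadjusted p. It was under 0.05 for 44 in EM, all higher, when 5.87% of all genes had such a p, for 34 in E2, all higher (2.23% of all genes), and for 64 in the interaction, all lower (9.74% of all genes). It was under 0.05 for 1 in EM+E2 (8.16% of all genes), 1 in the EM main effect (6.88%) and 0 in the E2 main effect (2.41%). DESeq2 called 1 member for EM, 4 for the interaction and 0 elsewhere, with its shares of all genes called not given here. The median member differed from DMSO by 0.84 in EM, 0.75 in E2 and 0.01 in EM+E2, and the interaction had a median of -1.49.

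The 4 high libraries also stood apart in single members. rplp0 had 3137, 4520 and 4301 CPM in EM 8 d, 4186, 4387 and 2910 CPM in E2, 2642, 3050 and 3080 CPM in EM+E2, and 2832, 3147 and 3065 CPM in DMSO. EM replicate 1 and E2 replicate 3 thus lay with EM+E2 and DMSO, and the rest of EM and E2 above all of them. Without EM 8 d replicate 1 20 members passed the test as higher in EM and 56 as lower in the interaction. The share of all genes called in that run is not given here, so these counts cannot be set against it. In the recovered reads the medians were 0.48 in EM, 0.49 in E2 and -0.96 in the interaction. The high raw-per-recovered ratio of those libraries moves with this result, and its part was not tested.

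At 16 d 0% of all genes were called in each of the 6 comparisons, over 80 members tested. Members with an unadjusted p under 0.05 numbered 29 for the EM main effect, all lower (4.09% of all genes), 3 for EM+E2 (1.88%) and 0 for the others. DESeq2 called none. The median member had -0.75 in the EM main effect and -0.75 in EM+E2 (all genes -0.02 and 0.01). Over the alternative runs these ran from -0.90 to -0.45 and from -0.98 to -0.53. For EM the median was -0.38, for the interaction -0.65 and for the E2 main effect -0.06. For E2 it was 0.28, and -0.21 without E2 16 d replicate 2. At 32 d, over 78 members, 0.217% of all genes were called for EM, 0.25% for EM+E2, 0.0894% for the EM main effect and 0% for E2, the E2 main effect and the interaction. An unadjusted p under 0.05 was found for 58 members in the EM main effect, all lower (9.89% of all genes), and DESeq2 called none. It was found for 17 members in EM (7.57% of all genes), 9 in EM+E2 (5.14%) and 2 in E2 (8.55%). The E2 main effect (2.42% of all genes) and the interaction (7.59%) had 1 such member each.

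DMSO 32 d replicate 2 set much of the 32 d values. TMM, the scaling used in the tests, gave it a factor of 0.511 over all libraries, the lowest. Its members took 13.7% of the total so scaled, against 3.14% to 7.65% in the other 32 d libraries. The median member differed by -0.90 in EM and by -0.79 in EM+E2, and without that library by 0.08 and 0.17. The median of the EM main effect was -0.88, and -0.38 without it. For E2 4 members were called without it, all higher, in a run whose share of all genes called is not given here. rplp0 had 1647, 1995 and 1616 CPM in EM, 2855, 1850 and 2005 CPM in E2, 1687, 1659 and 1898 CPM in EM+E2, and 1814, 3396 and 1714 CPM in DMSO, where replicate 2 lay apart.

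At 64 d 2903 genes were higher and 3762 lower in EM than in DMSO fish, and few of them were members. For EM 0 of 79 members rose and 1 fell, when 13.6% of all genes rose and 17.6% fell. For EM+E2 1 rose and 1 fell, when 13.6% rose and 16.9% fell. Only 2 and 3 members, 2.53% and 3.80%, had an unadjusted p under 0.05, against 43.8% and 44.1% of all genes. The median member differed from DMSO by -0.14 in EM and -0.13 in EM+E2, and the median gene by 0.21 and 0.15. Without DMSO 64 d replicate 2 these member medians were 0.29 and 0.28, so their direction rested on that library. For E2 edgeR called 0 members, when it called 0.00468% of all genes. DESeq2 called 2 members as lower, with its share of all genes called not given here. An unadjusted p under 0.05 was found for 4 members (5.06%) in E2, against 28.0% of all genes. The median for E2 was -0.39, or 0.08 without DMSO 64 d replicate 2. The E2 main effect also had 0 calls (0.00468% of all genes) and the interaction 0 (0% of all genes), and DESeq2 called none in these. Of the members 4 in the E2 main effect and none in the interaction had an unadjusted p under 0.05, against 13.4% and 14.5% of all genes.

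The number of members called depended on single libraries. Without DMSO 64 d replicate 2 EM had 7 calls (6 higher, 1 lower) and EM+E2 6, and without replicate 3 they had 6 (1 higher, 5 lower) and 8, while E2 had 6, all lower. Without EM+E2 64 d replicate 1 EM+E2 had 0. Shares of all genes called in these runs are not given here, so the counts cannot be set against them. The share of reads in those DMSO libraries, 5.24% and 3.25%, is given above.

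The member that fell was rpl7l1 in both. It had 16.9 and 18.7 CPM in EM, 14.0 and 24.9 CPM in EM+E2, 33.4 and 49.4 CPM in E2, and 108, 51.3 and 68.6 CPM in DMSO. All exposed libraries lay below all DMSO libraries, and those with EM below those of E2. The log2 fold change was -2.15 ± 0.38 in EM (adjusted p = 0.0039) and -2.01 ± 0.38 in EM+E2 (adjusted p = 0.00624), and the EM main effect was -1.59 ± 0.27 (adjusted p = 0.00344). In EM and in the EM main effect the call held in every alternative, and in EM+E2 it was lost only without EM+E2 64 d replicate 1 (-1.66). Its relative rpl7, a core protein of the large subunit, averaged 983 ± 133 CPM in EM, 960 ± 28.7 CPM in EM+E2 and 871 ± 171 CPM in DMSO (SD, n = 2, 2 and 3), with adjusted p-values of 0.832 and 0.883. rpl7l1 thus made up 1.40% to 5.31% of the reads of the pair in exposed libraries of 64 d, and 12.6%, 4.60% and 7.85% in DMSO libraries.

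Marker genes of oocytes and of somatic testis cells also differed between groups at 64 d. The summed level of 8 oocyte markers, all of them found in the table, was 3.89 and 3.78 CPM in EM, 19.0 and 801 CPM in EM+E2, 2319 and 2224 CPM in E2, and 6619, 2797 and 5169 CPM in DMSO. The egg coat gene zp2.1 was at 0 in both EM libraries. The summed level of 4 markers of somatic testis cells, all found, was 39.3 and 67.3 CPM in EM, 6.38 and 5.21 CPM in EM+E2, 4.86 and 10.2 CPM in E2, and 6.90, 8.50 and 3.52 CPM in DMSO, with insl3 at 0 in both E2 libraries, 1 EM+E2 library and 2 DMSO libraries. The summed testis markers were thus higher in EM than in the other groups. The part of oocytes or testis cells in the changes of rpl7l1 and of the gene lists was not tested. The library with the lowest rpl7l1, EM+E2 replicate 1 at 14.0 CPM, had 19.0 CPM of the oocyte markers and 6.38 CPM of the testis markers.

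Assembly factors and mitochondrial ribosomal proteins did change with EM at 64 d. For EM 48 of 55 nucleolar assembly factors fell and none rose, with a median of -1.91, noc3l at -1.92 and utp15 at -3.04. For EM+E2 45 fell, with a median of -1.69, noc3l at -1.85 and gar1 at -2.41. For E2 none passed, with a median of -0.87 and 35 at an unadjusted p under 0.05, when 28.0% of all genes had such a p. Of 73 mitochondrial ribosomal proteins 32 fell in EM (median -0.88, mrpl36 at -1.91) and 38 in EM+E2 (median -0.97), and none rose. Among 39 initiation factors 10 fell in EM, led by eif4e at -3.05, the cap-binding protein, and eif2s1 at -1.63, and 7 in EM+E2, when 17.6% and 16.9% of all genes fell. Of 20 elongation and termination factors 2 rose and 3 fell in EM, led by eef2a.1 at -3.34, shares no higher than the 13.6% and 17.6% of all genes. fau and rack1 had adjusted p-values of 0.845 and 0.891 in EM.

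**Figure D4:**
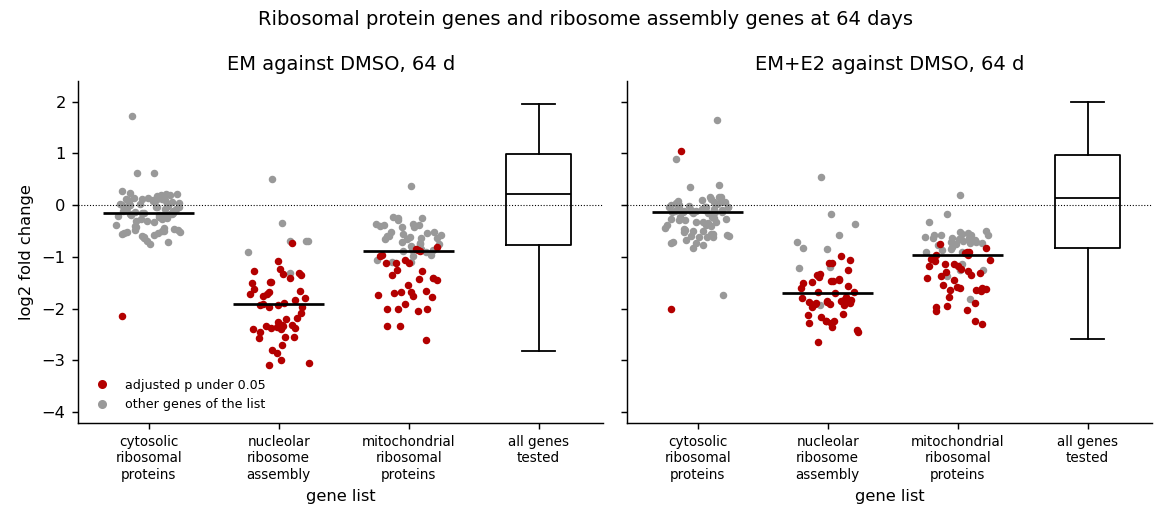
Log2 fold change against DMSO at 64 d in EM (left) and EM+E2 (right) for ribosomal protein genes, nucleolar assembly factors and mitochondrial ribosomal proteins, each point 1 gene, and for all genes tested (box, whiskers from 5 to 95%). Red points have an adjusted p under 0.05 and lines are medians, which are -0.14 for the ribosomal protein genes and -1.91 for the assembly factors in EM.

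A further member, rps12, passed in the EM main effect at 64 d. rps12 had 162 and 138 CPM in EM, 142 and 142 CPM in EM+E2, 23.6 and 46.0 CPM in E2, and 42.7, 74.1 and 7.03 CPM in DMSO, with no overlap between fish with and without EM. In the EM main effect it rose by 1.90 ± 0.56 on the log2 scale (adjusted p = 0.0345), when 7.72% of all genes rose, and rpl7l1 was the 1 member that fell, when 15.7% did. The call was kept in 7 of 15 alternatives. It was lost with any 1 EM, E2 or EM+E2 library left out and without DMSO 64 d replicate 1, with values of 1.69 to 2.18. In the recovered reads the value was -0.10, the opposite sign.

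The panel did not pass at 64 d. In EM and in DMSO, rplp0 averaged 1730 ± 222 and 1725 ± 581 CPM, rps6 678 ± 49.0 and 654 ± 160 CPM, rps19 286 ± 19.7 and 373 ± 153 CPM and rpl11 401 ± 7.06 and 565 ± 301 CPM (SD, n = 2 and 3). Log2 fold changes in EM were -0.08, -0.04, -0.49 and -0.61 for these 4, and their adjusted p-values were 0.888, 0.945, 0.374 and 0.327. A p that misses the threshold does not show that the levels were equal. In the DMSO libraries rpl11 alone ran from 348 to 909 CPM.

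Pairs of like-named members were compared by the share of the less abundant gene in the reads of the pair. Library size does not enter this share. As given above, rpl7l1 and rps27l are relatives of their partners and not copies of 1 protein. Reads of near-identical copies may be split or moved between them by the counting, so these shares are uncertain where copies are alike. rps27l took a median of 1.66%, 3.15%, 4.15%, 5.62% and 4.84% of rps27l plus rps27.1 at 2, 8, 16, 32 and 64 d. rpl7l1 took 3.26%, 2.35%, 4.46%, 3.19% and 3.60% of rpl7l1 plus rpl7 at the same ages.

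**Figure D5:**
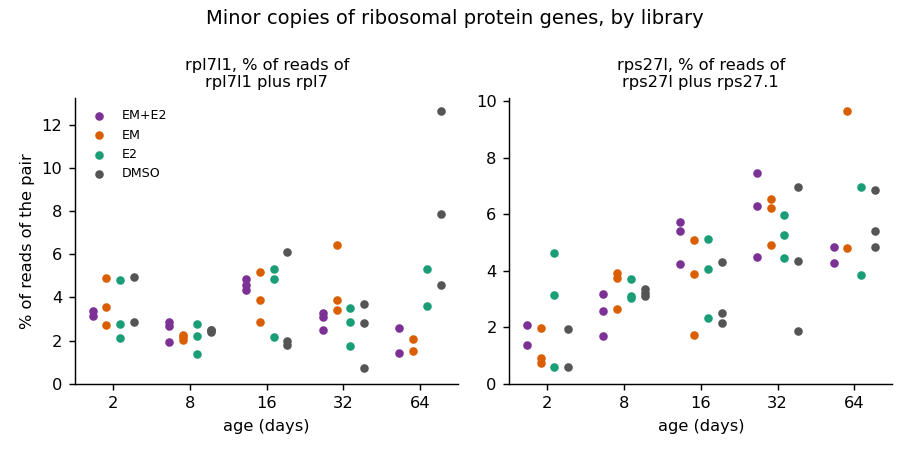
Share of the less abundant gene in the reads of its pair (percent) in each library, by age in days. The left panel has rpl7l1 with rpl7, and the right panel rps27l with rps27.1. Colours are EM+E2, EM, E2 and DMSO. At 64 d rpl7l1 reaches 12.6% in a DMSO library, and its exposed libraries lie between 1.40% and 5.31%.

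Other pairs were described in the same way. rpl22l1 took a median of 26.99%, 19.3%, 25.5%, 26.3% and 23.8% of rpl22l1 plus rpl22 at 2, 8, 16, 32 and 64 d, and rps27.2 32.6%, 33.8%, 31.3%, 35.8% and 30.8% of rps27.2 plus rps27.1. For pairs of 1 symbol the medians were 37.9% to 47.0% for rpl5 and 18.6% to 29.5% for rps26 over the 5 ages. The rps26 share was highest at 2 d.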

How the data were processed

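Per the submitters' processing notes, reads were checked with FastQC 0.11.8 and MultiQC 0.9, aligned to GRCz11 with HISAT2 2.0.5, handled with SAMtools 1.5 and Picard, and counted per gene with HTSeq 0.9.1. The labels describe polyadenylated, strand-marked libraries. The authors deposited raw read counts per gene, used for every main result, and a normalized table, a signal of counts divided by size factors. Whole reads could be recovered from that signal (100.0% of values whole within 0.01, 1 DMSO 64 d library not testable), and raw counts were 1.10 to 2.38 times the recovered reads. Symbols came from the gene table given with the files (29201 genes). No mRNA lengths or sequences were used here.

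Counts were scaled by TMM and tested with edgeR 4.0.16 in R 4.3.3 by its quasi-likelihood F test after filterByExpr (minimum count 10, total 15). There were 7 fits, 1 for each age, 1 of exposed and 1 of DMSO libraries over ages, giving 38 comparisons, with Benjamini-Hochberg adjustment over all genes tested and a threshold of 0.05. In the exposed fit each age is the mean of the 3 exposed groups. All treatments of an age share its DMSO libraries. CPM use library totals. SE are from the fitted model. Tests were also run on simulated data with known changes, and the outcome, which bears on what can be called, is not given here. DESeq2 1.42.0 was an alternative, besides RLE scaling, library totals, no filter, recovered reads, a replicate block and leaving out libraries.

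The members and gene lists (elongation and termination, initiation, nucleolar assembly, other ribosomal proteins, nutrient and p53 signalling, mitochondrial ribosomal proteins, oocyte markers) were chosen with earlier results of these data known. Genes were named by rule: a panel chosen for roles, the 5 members with the smallest adjusted p in each direction of a comparison, the 4 farthest from the member median at an age step, every member of a pair of copies, the 3 highest and 3 lowest by DMSO mean, and 2 genes per other list. Other members named for range, agreement of the 2 tables or size were chosen after their values were seen. Precision is limited by 2 or 3 libraries a group. Results on some members are not reported here.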

Additional observations from a re-analysis of the deposited data

How the results depend on the processing

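Counts of called members and read shares had 646 alternative values, of which 594 stayed within 1.5 times the main count or 1 SD and 52 did not. Most comparisons had no member called in the main run, and counts that stayed at 0 are among the 594. That number thus does not measure how stable the calls were. Where members were called, some counts moved widely, as given below. At DMSO 64 d against 32 d library totals gave 0 calls. At exposed 64 d against 32 d RLE scaling and no filter gave 0, and library totals and DESeq2 gave 2. In the recovered reads 3 members passed at exposed 8 d against 2 d and 3 at exposed 16 d against 8 d. DESeq2 called 1 member for the interaction at 2 d, 1 for EM at 8 d, 4 for the interaction at 8 d, 2 for E2 at 64 d and 1 for EM+E2 at 64 d, where RLE scaling also gave 1. With 1 replicate left out at a time, the calls ranged over 1 to 2 (DMSO 8 d against 2 d), 0 to 1 (DMSO 64 d against 32 d), 4 to 22 (exposed 8 d against 2 d), 2 to 30 (exposed 16 d against 8 d) and 0 to 8 (exposed 64 d against 32 d). They ranged over 0 to 20 for EM and 0 to 56 for the interaction at 8 d, 0 to 4 for E2 at 32 d, and at 64 d over 1 to 7 for EM, 0 to 6 for E2, 0 to 8 for EM+E2 and 1 to 5 for the EM main effect. Shares of all genes called in these runs are not given here. The alternatives that left out E2 2 d replicate 1, alone or with E2 16 d replicate 1, were added after seeing the data and gave 22 and 19 calls at exposed 8 d against 2 d, and 30 and 23 at 16 d against 8 d.

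Of 256 alternative values of 19 called member changes, 217 kept the call, 38 lost it and 1 reversed, rps12 in the EM main effect at 64 d, at -0.10 in the recovered reads; the cause was not tested. Same-numbered libraries had deviations from their group means that correlated at -0.66 to 0.74 over 78 pairs, and were not taken as paired. Of these pairs 27 were over 0.1, with 13 of 18 at 16 d, 5 of 12 at 2 d, 4 of 18 at 8 d, 5 of 18 at 32 d and 0 of 12 at 64 d. All 3 pairs of EM with E2 were over 0.1 at 2 d and at 16 d, but not all pairs of any exposed group with DMSO at any age. With the replicate block 0 members were called in each comparison at 2 d and 16 d. It gave 4 calls for EM and 4 for EM+E2 at 64 d. Shares of all genes called with the block are not given here, so these counts cannot be set against them. Groups of 2 or 3 whole-body pools limit what can be called, and members under 10 mean reads cannot be compared.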
